A study of Mus musculus with 12 samples.

Results

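The histone genes of the Hist clusters were followed in 2 mouse testis cell lines exposed to a phthalate metabolite. They were taken as the protein-coding genes of the count table whose names begin with Hist1h, Hist2h, Hist3h or Hist4h, which gave 67 of 55004 genes; 3 Hist-named pseudogenes were not members. By type they comprised 6 genes of H1, 18 of H2A, 18 of H2B, 12 of H3 and 13 of H4. The Hist1 cluster held 54 of them, on chromosome 13 (chr13:21715763-23934851, mm10), the Hist2 cluster 10 on chromosome 3 (chr3:96219865-96270132), the Hist3 cluster 2 on chromosome 11 (chr11:58948920-58956830) and the Hist4 cluster 1 on chromosome 6. RNA was sequenced from TM4 cells with MEHP, TM4 cells with DMSO, TM3 cells with MEHP and TM3 cells with DMSO, with 3 libraries in each group. MEHP is mono(2-ethylhexyl) phthalate, formed in the body from the plasticizer di(2-ethylhexyl) phthalate; it was given at 100 uM for 72 h, and the controls received 0.1% DMSO as the solvent. TM3 is an established line from mouse Leydig cells, which make testosterone, and TM4 one from mouse Sertoli cells, which nurse the germ cells. The source and cell line labels call the lines rat while giving the organism as mouse, and the counts are on mouse genes. The labels state no strain, age or passage.

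Clustered histone genes supply most of the histone protein that a cell needs while it copies its DNA. H2A, H2B, H3 and H4 form the core around which DNA is wrapped, and H1 binds the linker DNA between cores. Their messages are unusual among animal mRNAs because they normally carry no poly(A) tail. They end instead just after a short stem-loop, which is bound by SLBP and cut with the help of the U7 small nuclear ribonucleoprotein. Some of these genes also give longer, polyadenylated transcripts that pass the stem-loop, as has been described in cells that leave the cell cycle. The libraries were made from RNA held on poly-T beads, a step that selects polyadenylated transcripts, so the counts below do not measure the level of the tailless messages.

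The stem-loops of expressed members are printed because they mark where a tailless message would end. They were read from the GENCODE M21 transcript models, 5′ to 3′ on the sense strand, and capitals mark the 6-base stem, the 4-base loop and the matching stem.
Hist1h1c: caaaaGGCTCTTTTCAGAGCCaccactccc
Hist1h1e: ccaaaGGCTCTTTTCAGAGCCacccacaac
Hist3h2a: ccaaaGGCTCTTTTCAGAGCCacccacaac
Hist1h2be: ccaaaGGCTCTTTTCAGAGCCacccaacag
Hist1h4i: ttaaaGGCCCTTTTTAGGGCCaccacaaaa
Hist1h4j: ctaaaGGTCCTTTTCAGGACCaccacatct
A stem of 6 bases beginning GG, a 4-base loop with T, then C or T, then T, and a perfectly complementary second strand were found after the stop codon in the models of 46 of the 67 members, 21 to 58 bases after it. The core printed for Hist1h1c was carried by 26 members, of types H1, H2A, H2B and H3. The 12 H4 genes with a stem-loop had other stems, such as those of Hist1h4i and Hist1h4j. Of the 21 models without a match, 13 ended at the stop codon. Hist1h2bc and Hist2h2be, members with the second and the third highest counts, had models of 742 and 2192 bases after the stop codon and no match in them.

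The promoters of 3 members of different types are printed to show the elements that set the types apart. RefSeq's table of 300 bases, 250 before the transcript start and 50 after it (GRCm38.p6), matched 61 of the 67 members by name. Sequences run 5′ to 3′ on the gene's strand. Capitals mark matches, on either strand, of the 5 motifs whose letters and shares are given after the sequences; no match shares bases with another motif in these 3.
Hist1h1c: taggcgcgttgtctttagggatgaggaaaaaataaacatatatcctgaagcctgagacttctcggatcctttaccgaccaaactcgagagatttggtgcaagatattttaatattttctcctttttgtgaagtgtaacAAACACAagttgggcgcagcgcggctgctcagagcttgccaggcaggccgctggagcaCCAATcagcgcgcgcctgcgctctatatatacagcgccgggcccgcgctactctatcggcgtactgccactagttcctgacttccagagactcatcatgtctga
Hist3h2a: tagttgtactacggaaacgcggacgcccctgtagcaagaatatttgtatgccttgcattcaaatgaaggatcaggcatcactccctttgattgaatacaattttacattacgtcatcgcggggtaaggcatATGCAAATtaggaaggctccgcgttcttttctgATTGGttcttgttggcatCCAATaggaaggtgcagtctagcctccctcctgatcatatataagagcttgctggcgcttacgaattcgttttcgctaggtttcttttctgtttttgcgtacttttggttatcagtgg
Hist1h4i: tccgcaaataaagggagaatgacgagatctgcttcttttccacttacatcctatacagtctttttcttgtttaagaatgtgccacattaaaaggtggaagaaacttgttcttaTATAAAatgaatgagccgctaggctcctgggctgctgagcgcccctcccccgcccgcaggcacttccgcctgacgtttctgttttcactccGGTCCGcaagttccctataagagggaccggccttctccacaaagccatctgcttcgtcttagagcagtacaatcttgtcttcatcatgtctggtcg
The Hist1h1c promoter lies on the plus strand at chr13:23738557-23738856, that of Hist3h2a on the plus strand at chr11:58954435-58954734 and that of Hist1h4i on the minus strand at chr13:22041313-22041612. CCAAT was present in 85.2% of the members' promoters, against 37.4% of all 32851 promoters; all H1, H2A, H2B and H3 promoters held it, and 3 of 12 H4 promoters did. TATAAA was present in 57.4% of the members, against 13.6% of all promoters. AAACACA, known as part of the H1 promoter box, was found in 5 of 6 H1 promoters, against 7.18% of all. GGTCCG, part of the element bound by HINFP in human H4 promoters, was found in 11 of 12 H4 promoters, against 8.25% of all. The octamer ATTTGCAT was found in 7 of 17 H2A and 6 of 16 H2B promoters and in no H1, H3 or H4 promoter, against 1.74% of all. Windows of neighbouring H2A and H2B genes can overlap. Those of Hist1h2ae and Hist1h2bg held the same octamer, so the H2A and H2B tallies are not separate. All these shares are matches of letters in one window and say nothing of which proteins were bound.

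Total counts were 15771908 to 18203115 per library, so that 3 counts in a library corresponded to 0.165 to 0.190 CPM (counts scaled to library size). Where a group was at 0, the floor used below is 3 counts over all libraries of the group together. That floor reflects counting error alone. Whether replicate libraries were grown as separate cultures is not stated in the labels, and the p-values then reflect a spread that may be technical. The Leydig markers Hsd3b1, Hsd3b6, Hsd17b3 and Lhcgr and the Sertoli markers Fshr and Dmrt1 were at 0 in all 4 groups. Of the 10 Leydig and 12 Sertoli markers listed, 3 and 6 were at 1 CPM or more in each group. Leydig markers summed to 93.1 to 98.1 CPM in TM4 MEHP, 120 to 136 in TM4 DMSO, 606 to 627 in TM3 MEHP and 622 to 654 in TM3 DMSO libraries. Sertoli markers summed to 178 to 190, 207 to 218, 398 to 409 and 424 to 463 CPM in the same order, a sum also higher in TM3. The single Sertoli markers were split. Of the 9 tested by edgeR as described below, 4 were higher and 4 lower in TM4 DMSO than in TM3 DMSO, beside 40.0% and 42.0% of all genes. Germ cell markers summed to 0.172 to 0.593 CPM in TM4 MEHP, 0.441 to 0.758 CPM in TM4 DMSO, 28.4 to 32.2 CPM in TM3 MEHP and 19.997 to 29.1 CPM in TM3 DMSO libraries, and most of that in TM3 was Zbtb16, a transcription factor also found outside the germ line. Hist1h2ba and Hist1h2aa, the testis-specific H2B and H2A genes, had no count in any library. Of the 11 testis-type and germ cell histone variants listed, 1 was at 1 CPM or more in each group and 8 or 9 were at 0. In TM3 nearly all of the list's sum therefore came from 1 gene. That list summed to 3.19 to 3.44 CPM in TM4 MEHP, 2.59 to 3.45 in TM4 DMSO, 68.4 to 75.2 in TM3 MEHP and 66.5 to 75.3 in TM3 DMSO libraries.

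Nearly all clustered histone genes gave few counts. Of the 67, 10 had 0 counts in all 12 libraries, 43 were counted but never above 10 in a library, and 14 exceeded 10 in at least 1 library. The number with no count in a group was 20 in TM4 MEHP, 19 in TM4 DMSO, 16 in TM3 MEHP and 16 in TM3 DMSO. Summed over all members, the level was 18.2 ± 1.53 CPM in TM4 MEHP, 18.7 ± 0.831 CPM in TM4 DMSO, 50.3 ± 6.12 CPM in TM3 MEHP and 43.4 ± 5.36 CPM in TM3 DMSO (SD, n = 3 each). Hist1h1c alone made up 41.5%, 43.8%, 66.0% and 61.9% of these sums. The MEHP and DMSO libraries overlapped in this sum in both lines, and every TM4 DMSO library was below every TM3 DMSO library. In bulk RNA fewer cells that use a gene and less RNA per cell cannot be told apart.

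**Figure D1:**
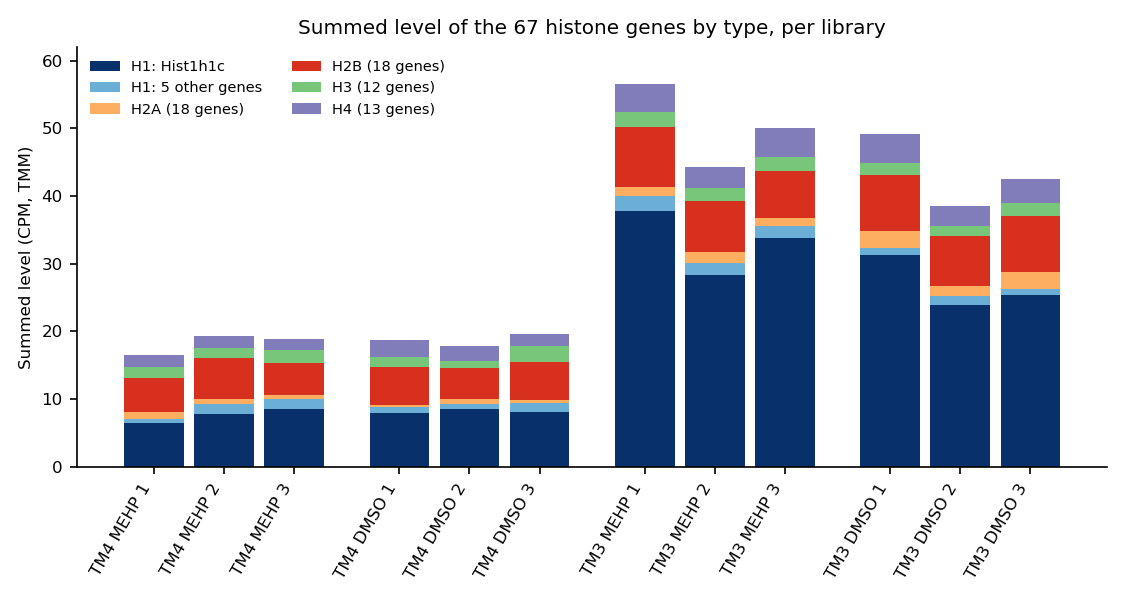
Summed level of the 67 histone genes in each of the 12 libraries (CPM scaled by TMM factors), stacked by histone type with Hist1h1c shown apart from the 5 other H1 genes. The TM3 columns reach 38.5 to 56.6 CPM and the TM4 columns 16.5 to 19.6 CPM, and the dark Hist1h1c block accounts for most of that gap.

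The other types each gave fewer counts than H1, also with all their genes added. H2B genes summed to 5.26 ± 0.713 CPM in TM4 MEHP, 5.21 ± 0.595 in TM4 DMSO, 7.76 ± 0.964 in TM3 MEHP and 7.95 ± 0.546 in TM3 DMSO. H4 genes summed to 1.71 ± 0.0499, 2.14 ± 0.331, 3.88 ± 0.621 and 3.58 ± 0.649 CPM in TM4 MEHP, TM4 DMSO, TM3 MEHP and TM3 DMSO. H3 genes summed to 1.66 ± 0.232, 1.66 ± 0.616, 2.10 ± 0.179 and 1.73 ± 0.225 CPM in the same order of groups. The H2B and H4 sums did not overlap between TM4 DMSO and TM3 DMSO libraries, while the H3 sums did. The H4 gap came from Hist1h4i and Hist1h4j, with 80 and 30 of the 178 H4 counts in TM3 DMSO. They had 16 and 8 of the 106 in TM4 DMSO, where the other H4 genes together had no fewer counts than in TM3 DMSO. With MEHP, the H4 sums of TM4 were lower and the H3 sums of TM3 higher than in every DMSO library of the line, both narrowly. The highest H4 sum of TM4 MEHP was 1.758 CPM, against a lowest of 1.769 in TM4 DMSO, from 90 and 106 counts. The lowest H3 sum of TM3 MEHP was 1.912 CPM, against a highest of 1.897 in TM3 DMSO, from 102 and 86 counts. H2A genes gave the fewest counts in every group but TM3 DMSO, with 0.822 ± 0.166 CPM in TM4 MEHP, 0.500 ± 0.158 in TM4 DMSO, 1.37 ± 0.218 in TM3 MEHP and 2.18 ± 0.516 in TM3 DMSO. The H2A sum of TM4 DMSO rested on 25 counts over 18 genes and 3 libraries and that of TM4 MEHP on 43; these 2 sets of libraries did not overlap, and those of TM3 did. Sums were not tested. The 58 members that were too low for the test summed to 4.49 ± 0.484 CPM in TM4 MEHP, 4.85 ± 0.346 in TM4 DMSO, 6.20 ± 0.640 in TM3 MEHP and 5.55 ± 0.780 in TM3 DMSO, and these sums overlapped between TM4 DMSO and TM3 DMSO libraries.

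Members were grouped by how far their annotated transcript runs past the stem-loop. Seen per length, as RPKM (reads per kilobase of gene model, scaled to library size) averaged over the 12 libraries, the median level was 0.162 for the 23 members whose model runs over 100 bases past the stem-loop. It was 0.103 for the 23 members whose model ends 3 to 74 bases past it and 0.0600 for the 21 members with no stem-loop in the model. The extended class held 4820 of the members' counts (74.3%), of which Hist1h1c alone gave 3757. The short class held 358 and the class without a stem-loop 1307, of which Hist1h2bc and Hist2h2be gave 566 and 455. The polyadenylation signal AATAAA was within the last 40 bases of 10 of the 23 extended models, 0 of the 23 short ones and 1 of the 21 without a stem-loop. The median short model ended 33 bases past the stem-loop, and 13 of the 21 without one ended at the stop codon. The last 40 bases of such models often held stem-loop or coding sequence. The way the classes were drawn thus largely fixed these signal counts, which are no separate evidence on the classes. The classes also differed in how well reads can be placed: a median of 90.6% of the 150-base windows of an extended member occurred in no other gene's transcripts, against 54.9% for the short class and 47.3% for the class without a stem-loop. The median transcript model was 1249 bases long in the extended class, 482 in the short class and 405 in the class without a stem-loop. The part of read placement and of model length in the difference of levels was not tested. Hist2h2aa1, Hist2h2aa2, Hist2h2bb, Hist2h3b and Hist2h3c1 had no window of their own, and all 5 were at 0 counts.

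**Figure D2:**
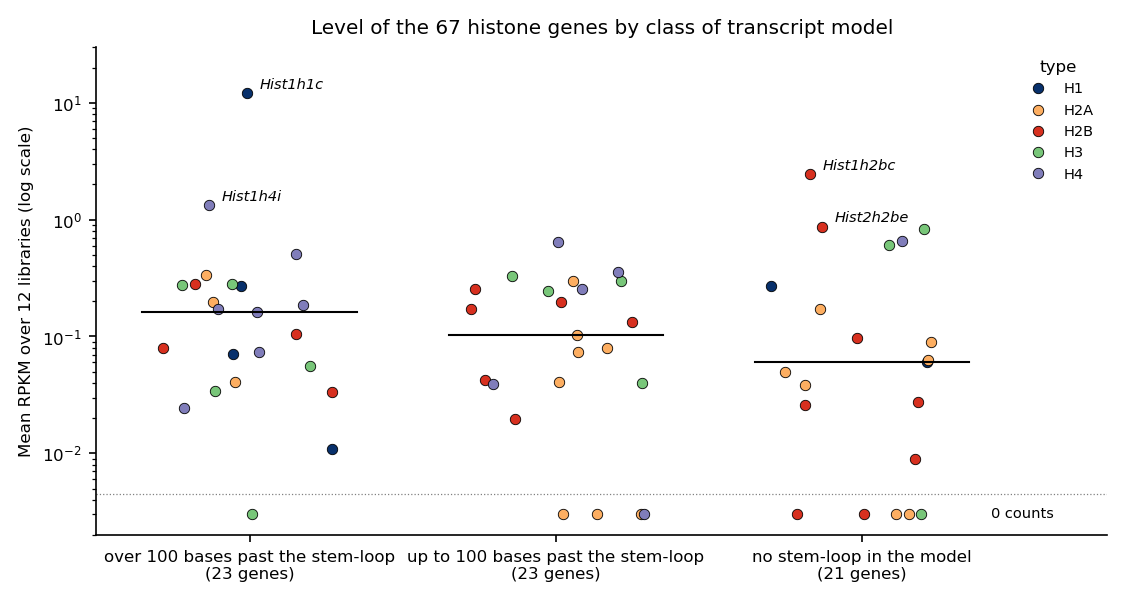
Mean level over 12 libraries (RPKM, log scale) of the 67 histone genes, grouped by how far the annotated transcript model runs past its stem-loop; each point is a gene, colours give the histone type, lines the class medians, and genes with 0 counts are drawn below the dotted line. Hist1h1c, at 12.2 RPKM, stands highest, in the extended class, and no gene of the short class exceeds 0.639 RPKM.

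Enough counts for a test were present for 9 members, Hist1h1c, Hist1h1d and Hist1h1e of H1, Hist3h2a of H2A, Hist1h2bc, Hist1h2be and Hist2h2be of H2B and Hist1h4i and Hist1h4j of H4, among 15700 genes tested with edgeR's quasi-likelihood test and a threshold of 0.05 on p-values adjusted by the method of Benjamini and Hochberg. No H3 gene passed the filter. In TM4 DMSO against TM3 DMSO, 6 of the 9 were lower and 1 was higher; of all genes 82.0% changed, 40.0% higher and 42.0% lower. The filter bears on that count, because it asks for 0.610 CPM in at least 3 libraries of any kind. Hist1h1c, Hist1h2bc and Hist2h2be reached this in either line, and Hist1h1c and Hist2h2be were lower in TM4 DMSO. Hist1h4i, Hist1h1d, Hist1h2be, Hist3h2a and Hist1h4j reached it only in TM3 and Hist1h1e only in TM4, so the line in which each of these 6 was higher was favoured by the filter, and neither their count nor their directions are evidence on the clustered genes as a group. The groups did not overlap for any of the 9, beside 82.9% of all genes. In TM3 MEHP against TM3 DMSO, 1 of the 9 was higher and 0 were lower, where 16.5% of all genes changed, 9.04% higher and 7.43% lower. The members' median was 0.13, beside 0.01 for all genes, and the groups did not overlap for 3 of the 9, against 35.4% of all genes. In TM4 MEHP against TM4 DMSO, 0 of the 9 were called by edgeR, where 30.9% of all genes were, 15.9% higher and 15.0% lower, and the groups overlapped for all 9, although 38.8% of all genes did not overlap. The members' median in that comparison was also 0.13, beside 0.003 for all genes, so it did not set TM3 apart. At an unadjusted p under 0.05 that comparison had 1 member, Hist3h2a, and DESeq2 called 0 of the 4 members to which it gave an adjusted p. The difference between the responses of the lines passed the test for 0 members, against 26.3% of all genes. In both edgeR and DESeq2, 2 members had an unadjusted p under 0.05. DESeq2 called 0 of the 3 members to which it gave an adjusted p.

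**Figure D3:**
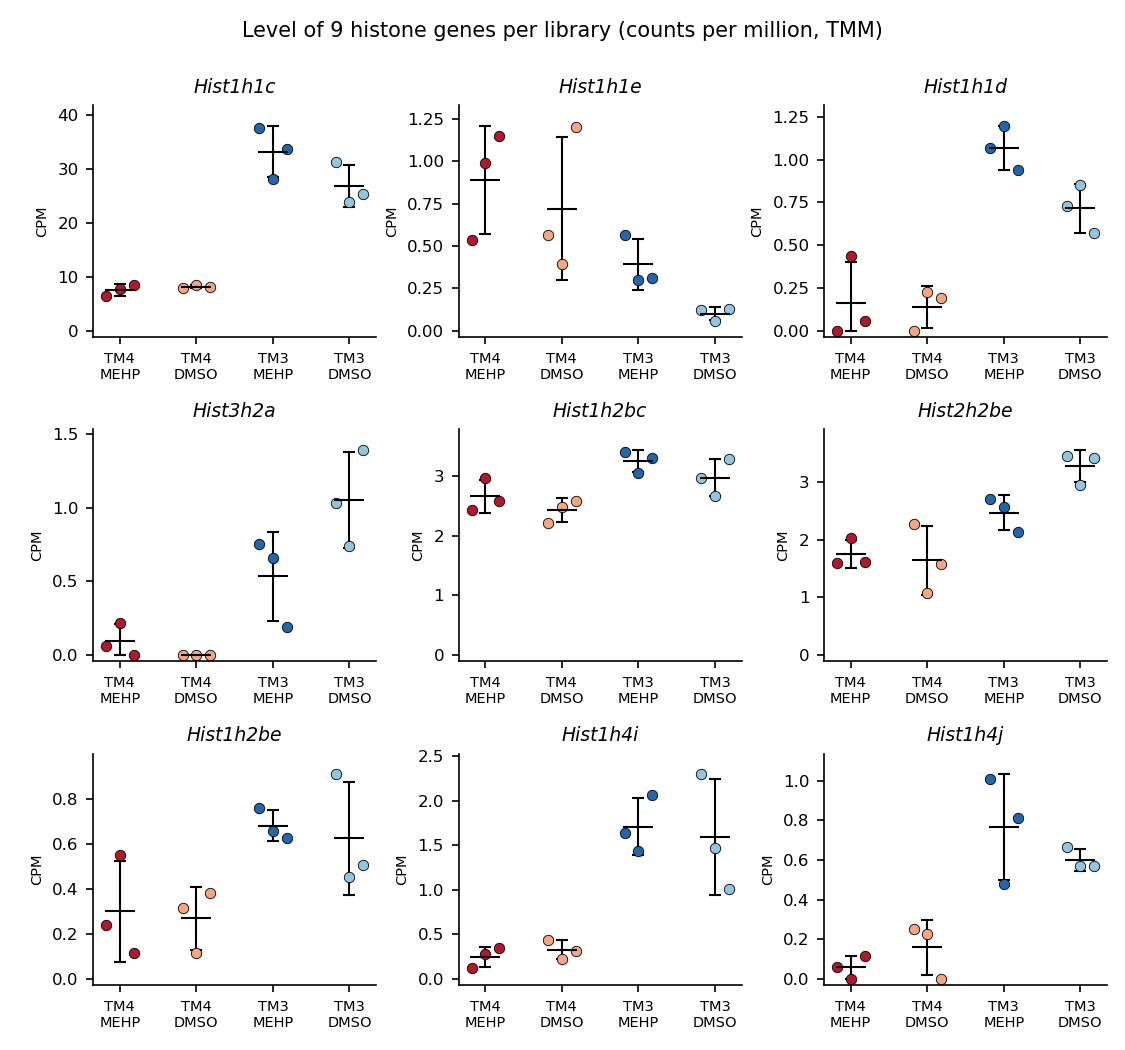
Level of the 9 tested histone genes in each library (CPM scaled by TMM factors, a separate linear axis from 0 for each gene), with TM4 MEHP, TM4 DMSO, TM3 MEHP and TM3 DMSO from left to right; points are libraries and bars mean ± SD (n = 3), cut at 0. Hist1h1e is the gene whose TM4 points lie above those of TM3 DMSO, while the other 8 have every TM4 DMSO point below every TM3 DMSO point.

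Among the linker histones, Hist1h1c (H1.2, chr13:23738808-23740367, plus strand) was the most abundant clustered histone gene in every group, also per length. It had 6.46, 7.80 and 8.49 CPM in TM4 MEHP, 8.01, 8.48 and 8.08 CPM in TM4 DMSO, 37.7, 28.3 and 33.8 CPM in TM3 MEHP and 31.3, 23.9 and 25.4 CPM in TM3 DMSO libraries. Both TM3 groups were above both TM4 groups in every library, and within each line the treated and control libraries overlapped. In TM4 DMSO against TM3 DMSO its log2 fold change was -1.71 ± 0.12 (SE), an adjusted p of 1.03e-13 by edgeR. Within TM3 it was higher with MEHP by 0.31 ± 0.11 on the log2 scale, a 1.24-fold difference that just passed edgeR's test (adjusted p = 0.0455). That call ended with RLE factors (adjusted p = 0.0536), with DESeq2 (0.0743) and when only the TM3 libraries were fitted (0.0673). It also ended without TM3 MEHP replicate 1 (0.282) or 3 (0.124), TM3 DMSO replicate 2 (0.196) or 3 (0.174), TM4 MEHP replicate 2 (0.0524) or TM4 DMSO replicate 2 (0.0613), each by edgeR. In TM4 the difference was -0.11 ± 0.14 (adjusted p = 0.611), and the difference between the lines' responses, -0.42 ± 0.18, had an adjusted p of 0.0835 by edgeR. That difference passed without TM3 MEHP replicate 2 (0.0293), TM3 DMSO replicate 1 (0.0249) or TM4 MEHP replicate 3 (0.04996). Per length, Hist1h1c had 4.86 RPKM in TM4 MEHP, 5.25 in TM4 DMSO, 21.3 in TM3 MEHP and 17.2 in TM3 DMSO. H1f0, a linker histone that is not tied to S phase and has a polyadenylated message, had 204, 193, 245 and 218 RPKM in the same groups. The Hist1h1c model runs 840 bases past its stem-loop and has AATAAA near its end.

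Members too low for the test went both ways between the lines. Of those tested, Hist1h1e (H1.4) alone was higher in TM4 DMSO, and it reached the filter only in TM4. It had 9, 18 and 20 counts in TM4 MEHP, 9, 7 and 19 in TM4 DMSO, 9, 5 and 5 in TM3 MEHP and 2, 1 and 2 in TM3 DMSO libraries. Every library of the other 3 groups was above every TM3 DMSO library. TM4 DMSO was higher than TM3 DMSO by 2.74 ± 0.68 on the log2 scale (adjusted p = 0.000503, edgeR). In TM3 the value with MEHP was higher in 3 of 3 libraries, at 1.89 ± 0.76, which did not pass (adjusted p = 0.0869, edgeR). Its gene model shares 496 bases with that of Hist1h2be on the same strand, so how reads there were assigned is uncertain. Hist1h1d (H1.3) had 0, 8 and 1 counts in TM4 MEHP, 0, 4 and 3 in TM4 DMSO, 17, 20 and 15 in TM3 MEHP and 12, 15 and 9 in TM3 DMSO libraries. It was lower in TM4 DMSO than in TM3 DMSO by a log2 fold change of -2.29 ± 0.70 (adjusted p = 0.00378, edgeR). In TM3 the MEHP libraries did not overlap those of DMSO in CPM, with 0.57 ± 0.50 (adjusted p = 0.501, edgeR). The 5 H1 genes other than Hist1h1c together had 1.19 ± 0.517 CPM in TM4 MEHP, 1.02 ± 0.321 in TM4 DMSO, 1.96 ± 0.275 in TM3 MEHP and 1.06 ± 0.167 in TM3 DMSO. The sums did not overlap between TM3 MEHP and TM3 DMSO, and they overlapped between TM4 MEHP and TM4 DMSO and between TM4 DMSO and TM3 DMSO. Hist1h1b and Hist1h1a gave 40 and 9 counts in all, and Hist1h1t, the testis H1, 2 counts, both in TM4 DMSO.

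Hist3h2a was the H2A gene with enough counts for the test. It had 1, 4 and 0 counts in TM4 MEHP, 0, 0 and 0 in TM4 DMSO, 12, 11 and 3 in TM3 MEHP and 17, 13 and 22 in TM3 DMSO libraries. TM4 DMSO was at least 17.1-fold lower than TM3 DMSO, with a floor of 3 counts over the group (adjusted p = 1.82e-06, edgeR). In TM3 the log2 fold change with MEHP was -0.96 ± 0.52 (adjusted p = 0.227), and in TM4, where the 5 counts with MEHP were at least 1.57-fold above the floor of the group at 0, the adjusted p was 0.112, both by edgeR. The difference between the responses had an adjusted p of 0.0598 by edgeR, and of 0.0314 without TM4 MEHP replicate 3. The gene lies wholly within the span of Trim17 on the same strand, so some of its reads could be assigned to either; Trim17 had 159 counts in all, and its log2 fold change was -0.76 ± 0.53 between the lines (adjusted p = 0.186, edgeR). Without a filter on low counts, Hist1h2ae also was lower in TM4 DMSO, at -2.09 (adjusted p = 0.0246, edgeR), from 2, 2 and 2 counts, against 7, 10 and 10 in TM3 DMSO.

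Of the 3 tested H2B genes, 1 passed the test between the lines. Hist1h2bc had 2.43, 2.97 and 2.58 CPM in TM4 MEHP, 2.21, 2.49 and 2.59 in TM4 DMSO, 3.40, 3.05 and 3.31 in TM3 MEHP and 2.97, 2.67 and 3.29 in TM3 DMSO libraries. Under DMSO the lines just failed to overlap, and the difference of -0.29 ± 0.22 did not pass (adjusted p = 0.217, edgeR). Hist2h2be had 1.60, 2.03 and 1.61 CPM in TM4 MEHP, 2.27, 1.07 and 1.58 in TM4 DMSO, 2.71, 2.57 and 2.12 in TM3 MEHP and 3.45, 2.95 and 3.42 in TM3 DMSO libraries. It was lower in TM4 DMSO than in TM3 DMSO by a log2 fold change of -1.002 ± 0.26 (adjusted p = 0.000884, edgeR). In TM3 all 3 MEHP libraries were below all 3 DMSO libraries, with -0.40 ± 0.25 (adjusted p = 0.301, edgeR). Hist1h2be had 4, 10 and 2 counts in TM4 MEHP, 5, 2 and 6 in TM4 DMSO, 12, 11 and 10 in TM3 MEHP and 15, 8 and 8 in TM3 DMSO libraries. Its line difference of -1.21 ± 0.58 did not pass (adjusted p = 0.0557, edgeR); it passed with upper-quartile factors (0.0481) and without TM3 DMSO replicate 2 or TM4 DMSO replicate 3 (the lowest 0.0468).

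Of the H4 genes, Hist1h4i and Hist1h4j had most of their counts in TM3. Hist1h4i had 2, 5 and 6 counts in TM4 MEHP, 7, 4 and 5 in TM4 DMSO, 26, 24 and 33 in TM3 MEHP and 38, 26 and 16 in TM3 DMSO libraries. TM4 DMSO was lower than TM3 DMSO by a log2 fold change of -2.27 ± 0.45 (adjusted p = 3.37e-05, edgeR). Hist1h4j had 1, 0 and 2 counts in TM4 MEHP, 4, 4 and 0 in TM4 DMSO, 16, 8 and 13 in TM3 MEHP and 11, 10 and 9 in TM3 DMSO libraries. Its line difference was -1.85 ± 0.66 (adjusted p = 0.0116, edgeR), and 0.0729 without TM4 DMSO replicate 3. With MEHP, Hist1h4i differed by -0.38 ± 0.61 in TM4 and 0.10 ± 0.35 in TM3, and Hist1h4j by -1.39 ± 1.02 in TM4 and 0.34 ± 0.50 in TM3, with the groups overlapping in each case. Hist2h4, with fewer counts in TM3 than in TM4, had 12, 3 and 7 counts in TM4 MEHP, 5, 3 and 9 in TM4 DMSO, 2, 3 and 0 in TM3 MEHP and 3, 3 and 3 in TM3 DMSO libraries. Hist1h4h had 2, 14 and 4 counts in TM4 MEHP, 7, 7 and 4 in TM4 DMSO, 4, 3 and 3 in TM3 MEHP and 9, 3 and 1 in TM3 DMSO libraries, and its groups overlapped throughout. The most counted H3 genes, Hist1h3d and Hist1h3i, had 68 counts each over the 12 libraries and were too low for the test. Hist1h3i, whose model ends at the stop codon, had 5, 1 and 5 counts in TM4 MEHP, 6, 7 and 12 in TM4 DMSO, 10, 0 and 2 in TM3 MEHP and 5, 8 and 7 in TM3 DMSO libraries.

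Replication-independent histones, most of which are made from ordinary polyadenylated messages, had calls in each comparison. Of the 12 listed and tested, 3 were higher and 1 was lower in TM4 MEHP, beside 30.9% of all genes changed, a share near theirs. In TM3 MEHP 2 were higher and 3 lower, beside 16.5% of all genes, and in TM4 DMSO against TM3 DMSO 2 were higher and 7 lower, beside 82.0%. H2afx, the H2A variant that is phosphorylated at DNA breaks and whose gene can give both kinds of message, had 12.3, 14.2 and 15.6 CPM in TM4 MEHP, 9.02, 10.01 and 9.98 in TM4 DMSO, 46.9, 53.7 and 54.5 in TM3 MEHP and 52.7, 46.7 and 54.6 in TM3 DMSO libraries. It was higher in TM4 MEHP by 0.54 ± 0.11 (adjusted p = 0.000304) and lower in TM4 DMSO than in TM3 DMSO by a log2 fold change of -2.41 ± 0.10 (adjusted p = 1.10e-20), both by edgeR. Cenpa, the centromeric H3, had 154, 194 and 170 CPM in TM4 MEHP, 189, 200 and 191 in TM4 DMSO, 70.5, 75.2 and 71.3 in TM3 MEHP and 51.2, 52.9 and 48.2 in TM3 DMSO libraries. It was higher in TM3 MEHP by 0.51 ± 0.07 (adjusted p = 2.74e-06, edgeR). In TM4 the groups overlapped and the change of -0.16 ± 0.06 (adjusted p = 0.0451, edgeR) was lost in 10 of the 12 fits without 1 library (adjusted p up to 0.298); it passed without TM3 DMSO replicate 2 or TM4 MEHP replicate 2. H3f3a, a gene of the replacement histone H3.3, was lower in TM3 MEHP, with 142, 144 and 145 CPM, against 185, 176 and 175 in TM3 DMSO (-0.31 ± 0.05, adjusted p = 8.89e-05, edgeR). H2afy, of the macroH2A type, was higher in TM4 MEHP by 0.30 ± 0.06 (adjusted p = 0.000197, edgeR).

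Changes of H3f3b, H1f0 and H2afj in TM3 MEHP passed less firmly, at log2 fold changes of -0.19 ± 0.07, 0.17 ± 0.06 and -0.42 ± 0.11 with adjusted p of 0.0486, 0.0470 and 0.0195 by edgeR. Leaving out 1 library raised these to 0.303, 0.229 and 0.0855, with calls lost without any of TM3 MEHP replicates 1, 2 and 3 for H3f3b and H1f0, without TM3 MEHP replicates 1 and 2 for H2afj, and without TM3 DMSO replicates 1 and 3 for H3f3b and H2afj or 2 and 3 for H1f0. In the fit of all groups, the H3f3b and H1f0 calls also ended without TM4 DMSO replicate 2, and that of H3f3b without TM4 DMSO replicate 1 or TM4 MEHP replicate 2. H1fx, a linker histone variant, was higher in TM4 MEHP by 0.40 ± 0.16 (adjusted p = 0.0485, edgeR), and 6 of the 12 fits without 1 library ended that call (TM4 MEHP 3, TM4 DMSO 2 and 3, TM3 MEHP 2 and 3, TM3 DMSO 1; adjusted p up to 0.329). H2afz did not pass with MEHP in either line, at 0.10 ± 0.06 in TM4 and 0.12 ± 0.06 in TM3, and was higher in TM4 DMSO than in TM3 DMSO by 0.90 ± 0.06 (adjusted p = 1.33e-13, edgeR).

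Among genes that transcribe and process the tailless messages, most of the calls with MEHP in TM4 were lower. Of 32 listed genes 30 were tested; 4 were higher and 12 lower in TM4 MEHP, beside 15.9% and 15.0% of all genes. In TM3 MEHP 3 were higher and 3 lower, beside 9.04% and 7.43% of all genes, a share called that was near the background. The list had median log2 fold changes of -0.06 in TM4 and -0.0050 in TM3, beside 0.0034 and 0.0052 for all genes. Npat, the coactivator that turns on clustered histone genes at the histone locus body, had 67.6, 67.2 and 64.9 CPM in TM4 MEHP, against 97.0, 105 and 94.9 CPM in TM4 DMSO. All 3 treated libraries were below all 3 controls (-0.57 ± 0.06, adjusted p = 4.94e-08, edgeR). Slbp, which binds the stem-loop, had 27.5, 33.3 and 32.0 CPM in TM4 MEHP, against 39.5, 39.4 and 37.5 CPM in TM4 DMSO (-0.32 ± 0.08, adjusted p = 0.00175, edgeR). Casp8ap2 (FLASH), a partner of the U7 particle, differed by -0.31 ± 0.07 (adjusted p = 0.00122) and Lsm11, a U7-specific Sm protein, by -0.34 ± 0.09 (adjusted p = 0.00227) in TM4 MEHP by edgeR. The other U7-specific Sm protein, Lsm10, went the opposite way, with 10.2, 10.2 and 9.23 CPM in TM4 MEHP, against 6.50, 6.16 and 6.19 CPM in TM4 DMSO (0.65 ± 0.12, adjusted p = 0.000142, edgeR). Cdc25a, a phosphatase that activates the cyclin E kinase, was lower at -0.39 ± 0.07 (adjusted p = 8.21e-05, edgeR). Ccne2, a cyclin E gene, was lower at -0.38 ± 0.14 (adjusted p = 0.0418, edgeR), a call lost without any of TM4 MEHP replicates 1, 2 and 3, TM4 DMSO replicates 1 and 2, TM3 MEHP replicate 2 or TM3 DMSO replicate 3 (adjusted p up to 0.201).

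In TM3 neither Npat nor Slbp passed the test. Npat was at 0.11 ± 0.07 (adjusted p = 0.343) and Slbp at 0.03 ± 0.08 (adjusted p = 0.851) by edgeR. Snrpg, a core Sm protein, was lower in TM3 MEHP at -0.34 ± 0.06 (adjusted p = 0.000320, edgeR). Casp8ap2 was higher at 0.21 ± 0.07 (adjusted p = 0.0420), Lsm11 at 0.28 ± 0.10 (0.0416) and Ccne1 at 0.31 ± 0.11 (0.0495), and Ncbp2, of the cap-binding complex, was lower at -0.22 ± 0.07 (0.0179), all by edgeR. These last 4 calls were lost without 1 of several TM3 libraries: without TM3 MEHP replicate 2 or TM3 DMSO replicate 1 for all 4, without TM3 MEHP replicates 1 and 3 for all but Ncbp2, without TM3 DMSO replicate 2 for Casp8ap2 and Lsm11, and without replicate 3 for Casp8ap2, Ccne1 and Ncbp2. Without TM4 DMSO replicate 2 those of Casp8ap2, Lsm11 and Ccne1 were lost, and that of Ccne1 without TM4 DMSO replicate 3. The adjusted p reached 0.153, 0.211, 0.164 and 0.139 for Casp8ap2, Lsm11, Ccne1 and Ncbp2. Between the untreated lines, 15 of the 30 were higher and 10 lower in TM4 DMSO, beside 40.0% and 42.0% of all genes, among them Npat at 1.33 ± 0.07 (adjusted p = 4.13e-18, edgeR) and Lsm11 at 1.24 ± 0.09 (adjusted p = 6.98e-14, edgeR), while Slbp was at 0.01 ± 0.08 (adjusted p = 0.891, edgeR).

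**Figure D4:**
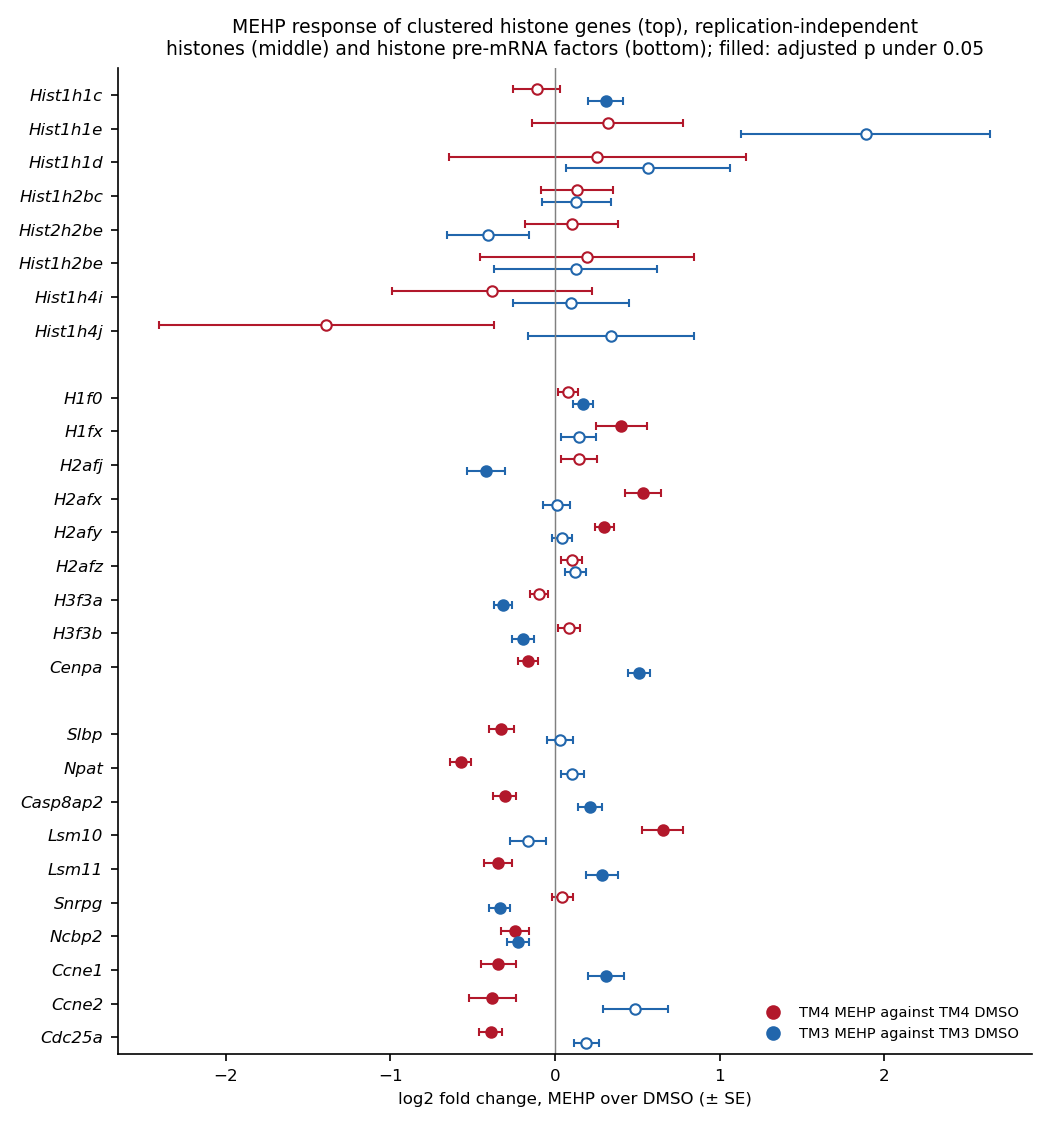
Log2 fold change with MEHP (± SE) in TM4 (red) and TM3 (blue) of 8 clustered histone genes (top), 9 replication-independent histones (middle) and 10 genes of histone transcription and processing (bottom); filled points have an adjusted p under 0.05 by edgeR, and Hist3h2a is left out because TM4 DMSO had 0 counts. The clustered genes have the widest bars and 1 filled point, Hist1h1c in TM3, and Npat, Slbp, Casp8ap2 and Lsm11 are filled below 0 in TM4.

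Histone chaperones and importers, which carry histones to chromatin, had calls in both directions. Of 30 tested, 6 were higher and 5 lower in TM4 MEHP, beside 15.9% and 15.0% of all genes. In TM3 MEHP 4 were higher and 4 lower, beside 9.04% and 7.43%, and in TM4 DMSO against TM3 DMSO 12 were higher and 13 lower, beside 40.0% and 42.0%. In TM4 MEHP and between the lines these shares were near the background. The CAF-1 subunits, which place new H3 and H4 behind the replication fork, were higher in TM4 MEHP, Chaf1b by 0.60 ± 0.09 (adjusted p = 6.06e-06) and Chaf1a by 0.30 ± 0.06 (adjusted p = 0.000682), by edgeR. Chaf1a was also higher in TM3 MEHP, at 0.32 ± 0.06 (adjusted p = 0.000498, edgeR), as were Asf1b, at 0.47 ± 0.09 (adjusted p = 0.000275, edgeR), and Mms22l, at 0.58 ± 0.09 (adjusted p = 1.11e-05, edgeR). Npm3, a nucleoplasmin, was lower in TM3 MEHP at -0.45 ± 0.07 (adjusted p = 3.53e-05, edgeR), and Spty2d1 and Atrx, a remodeller that loads H3.3, were lower in TM4 MEHP at -0.33 ± 0.05 and -0.28 ± 0.07 (adjusted p = 5.72e-06 and 0.00572, edgeR).

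Cell cycle lists are given because tailless histone mRNA is made in S phase. Of 37 S phase and DNA replication genes, 14 were higher and 0 lower in TM4 MEHP, beside 15.9% and 15.0% of all genes, and 13 were higher and 0 lower in TM3 MEHP, beside 9.04% and 7.43%. In TM4 DMSO against TM3 DMSO 7 were higher and 24 lower, beside 40.0% and 42.0% of all genes. Of 28 G2/M genes, 0 were higher and 10 lower in TM4 MEHP, 28 were higher and 0 lower in TM3 MEHP, and 27 were higher and 0 lower in TM4 DMSO against TM3 DMSO, with the same shares of all genes beside them. The part of these lists in the levels of the clustered histone genes was not tested.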

How the data were processed

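Per the labels' protocols, poly-T beads captured the RNA of the 12 libraries (3 for each of 4 groups), fragments were selected by size, and both ends were read for 150 bases. The values used are the raw counts per gene that the authors deposited. The submitters' processing notes list mm10, edgeR, featureCounts 1.5.0-p3, DESeq2 1.20.0, StringTie 1.3.3b and HISAT2 2.0.5, without their roles. Neither the strand setting nor the annotation release nor other counting options are given in the sources used here. Counts of overlapping, antisense or near-identical genes are therefore uncertain. The histone genes and the gene lists were chosen with earlier results of these data known.

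From these counts edgeR 4.0.16 (R 4.3.3) computed TMM factors (0.972 to 1.04), CPM, RPKM by the table's gene lengths, and robust quasi-likelihood tests in 1 fit of all 12 libraries with 1 coefficient per group (8 residual degrees of freedom), after filterByExpr. It kept 15700 genes, 9 of the 67 members among them. P-values were adjusted over all 15700. The script was tested on simulated data. Group means and SD are over 3 libraries. Libraries of a group differed by more than counting noise. The deposited counts had 11 empty lines, which were left out.

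Named genes are the members past the threshold in a comparison (up to 12 rises and 12 falls), the 8 most abundant members of each line, the H1 genes, up to 4 genes with the largest changes in each line from the lists of processing factors, variant histones and chaperones, and Slbp, Npat, Casp8ap2, Lsm11, H2afz, H2afx, H3f3a, H3f3b, H1f0 and Cenpa; of the cell cycle and marker lists, counts or sums are given. Genes named from other ranks were chosen after their values were seen. Transcript sequences are GENCODE M21, whose coordinates equalled the table's for all 67 members; promoters are RefSeq's. Alternatives were upper-quartile or RLE factors, dropping the filter, a stricter filter (1 CPM in 3 libraries), DESeq2 1.42.0, fits of only the groups compared, a replicate block and leaving out each library.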

Additional observations from a re-analysis of the deposited data

Results flagged for a closer look

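The difference between the MEHP responses of the lines (TM4 minus TM3, log2 scale) passed edgeR's interaction test for 20 of the named genes outside the Hist clusters, many of which were named for the size of their change in a line, so this count is no evidence on their lists. It passed for 0 of the 9 clustered genes tested and for 26.3% of all genes. Among the factors of histone transcription and processing it was -0.68 for Npat, -0.36 for Slbp, -0.52 for Casp8ap2, -0.63 for Lsm11, 0.82 for Lsm10, 0.38 for Snrpg, -0.65 for Ccne1, -0.87 for Ccne2 and -0.58 for Cdc25a. Among replication-independent histones it was 0.52 for H2afx, 0.56 for H2afj, 0.26 for H2afy, 0.22 for H3f3a, 0.28 for H3f3b and -0.67 for Cenpa. Among chaperones it was -0.69 for Mms22l, 0.67 for Npm3, 0.44 for Chaf1b, -0.40 for Spty2d1 and -0.46 for Atrx.

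Adjusted p-values by edgeR were between 2.64e-06 for Cenpa and 0.0372 for H3f3a. The Slbp difference was lost without TM4 MEHP replicate 1 (adjusted p = 0.0510) or TM3 MEHP replicate 3 (0.0537), that of H2afj without TM4 DMSO replicate 2 (0.0544), and that of H2afy without TM4 DMSO replicate 2 (0.0781) or TM4 MEHP replicate 1 (0.0516), all by edgeR. Those of H3f3a and H3f3b were each lost in 8 of the 12 fits without 1 library, with adjusted p up to 0.139 and 0.111 by edgeR, and that of H3f3a with RLE factors, without a filter and with DESeq2.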

How the results depend on the processing

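No member or named gene that was called changed direction under any alternative run. In TM3 MEHP against TM3 DMSO the count of members called higher was 0 with RLE factors, 0 with DESeq2 and 0 with only the groups compared. It was 0 to 1 without 1 library, against 1 in the fit reported. DESeq2 gave an adjusted p to only 3 members in that comparison. The same 2 groups had 709 to 1313 genes called lower without 1 library, against 1166. The lowest counts, 709 to 759, came when any of TM3 MEHP replicates 1 and 2 and TM3 DMSO replicates 1 and 3 was missing. In TM4 DMSO against TM3 DMSO the members called lower were 3 with the stricter filter, which left 5 of them to test, against 6, and the members called higher were 0 with only the groups compared, where Hist1h1e was not tested, against 1. Members with a difference of responses were 0 to 1 lower and 0 to 1 higher without 1 library, against 0 and 0. All other counts of members and genes stayed within 1.5 times. Of the named genes near the threshold, the calls of Casp8ap2, Lsm11, Ccne1 and H1f0 in TM3 and H1fx in TM4 also ended with RLE factors and with DESeq2, those of Ccne1 and H3f3b in TM3 and Cenpa and Ccne2 in TM4 with upper-quartile factors, those of Casp8ap2 and Lsm11 in TM3 and Ccne2 in TM4 without a filter, and those of Cenpa and H1fx in TM4 with only the groups compared. RLE and upper-quartile factors shifted the median of all genes by less than 0.1. The fit of only the groups compared was not run for the difference of responses, which needs all groups.

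Replicate numbers are shared between groups, but same-numbered libraries deviated together weakly (correlations of 0.004 to 0.029 in TM3 and 0.028 to 0.120 in TM4), so they were not taken as pairs; with a replicate block the members called were 1 and 0 in TM3, 0 and 0 in TM4 and 1 and 6 between the lines (higher and lower), and genes called with MEHP were 1546 and 1281 in TM3 and 2573 and 2456 in TM4. Depth limits the low members: genes under 0.190 CPM in both groups compared were near or below 3 counts per library, and changes there were not detectable.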

Other observations

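Hist1h2al, which the table calls a processed pseudogene and which is therefore no member, was counted in every library: 13, 30 and 29 counts in TM4 MEHP, 14, 32 and 23 in TM4 DMSO, 2, 7 and 8 in TM3 MEHP and 18, 18 and 14 in TM3 DMSO. It was chosen after its values were seen. In TM3 MEHP all 3 libraries were below all 3 controls, at a log2 fold change of -1.50 ± 0.49 (adjusted p = 0.0333, edgeR). Whether that call holds under the alternative runs or without 1 library was not tested. In TM4 Hist1h2al was at -0.02 ± 0.37 (adjusted p = 0.986, edgeR), and the difference between the lines' responses to MEHP had an adjusted p of 0.0796 by edgeR. Whether reads of H2A genes were assigned to it was not tested.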
